A study of Mus musculus with 36 samples.

Results

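Chromatin accessibility was examined at the loci of 7 interferon-induced antiviral genes of the mouse, the 2'-5'-oligoadenylate synthetase family members Oas1a, Oas2, Oas3, Oasl1 and Oasl2 on chromosome 5 and the Mx genes Mx1 and Mx2 on chromosome 16. A peak was a member if its mm10 interval overlapped a gene body or the 10 kb to either side. This rule used position alone and chose 72 of the 119751 deposited peaks. The windows held 8 peaks for Oas1a, 3 for Oas2, 6 for Oas3, 20 for Oasl1, 14 for Oasl2, 13 for Mx1 and 16 for Mx2, and 8 peaks lay in 2 windows. Of the 72, 9 lay at a gene start or end, 35 inside a gene body and 28 in a flank, and their lengths ran from 200 to 7265 bp. Flank peaks can belong to a neighbour: 3 in the Mx2 window overlapped Tmprss2, 1 in the Mx1 window overlapped Fam3b, and single peaks in the Oas windows overlapped Oas1d, Oas1e or Oas1g.

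The cells were bone marrow-derived dendritic cells, antigen-presenting cells grown in culture with GM-CSF from the marrow of female C57BL/6J mice aged 6 to 8 weeks (strain given as C57BL/6). ATAC-seq, in which a transposase cuts and tags open DNA, was run on 36 libraries in 18 groups of 2. All groups shared this genotype and culture, with no transgene or deletion named. The unstimulated group is Ctrl. Stimulation lasted 6 h. P stands for the ligand named PAM, L for LPS and H for HMW. SeV is abbreviated S, Zymosan depleted Z, and 3',3'-cGAMP cG. The 8 pairs were PL, PH, LH, PS, PcG, ScG, ZS and ZcG, and the 3 triplets were PLH, PScG and ZScG. The labels do not say whether the 2 libraries of a group came from separate mice or cultures, so p-values measure the spread between these libraries, which may be technical. In bulk samples, fewer cells of a type and less open chromatin per cell cannot be told apart.

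OAS proteins sense double-stranded RNA and make 2'-5'-linked oligoadenylates, second messengers of the antiviral response. Oasl1 and Oasl2 are family members that arose by duplication, and Oasl1 is known to hold back translation of Irf7 mRNA. Mx proteins are dynamin-like GTPases that block viral replication, and the C57BL/6 strain carries defective Mx1 and Mx2 alleles, both annotated as transcribed pseudogenes in the gene table used here. Type I interferon, induced in myeloid cells by LPS through TLR4, by RNA viruses through RIG-I-like receptors and by cyclic dinucleotides through STING, acts through a receptor and transcription factors that bind elements in the promoters of such genes.

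The promoters of 3 members are shown because accessibility at their start peaks was measured across the whole printed stretch and because they differ in that element. Each runs from 250 bases before to 50 bases after the RefSeq gene start (GRCm38.p6), 5′ to 3′ on the gene's strand, with matches to the core of the interferon-stimulated response element (a pair of GAAA repeats separated by any 2 bases) in capitals. Oas1a is at chr5:120907476-120907775 on the minus strand, Oas3 at chr5:120777610-120777909 on the minus strand and Oasl1 at chr5:114922990-114923289 on the plus strand.
Oas1a: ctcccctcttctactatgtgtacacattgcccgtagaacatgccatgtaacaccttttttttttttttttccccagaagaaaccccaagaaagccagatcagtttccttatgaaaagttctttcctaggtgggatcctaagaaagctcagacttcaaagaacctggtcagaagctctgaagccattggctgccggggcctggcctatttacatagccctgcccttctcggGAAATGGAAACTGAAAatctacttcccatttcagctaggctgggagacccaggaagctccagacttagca
Oas3: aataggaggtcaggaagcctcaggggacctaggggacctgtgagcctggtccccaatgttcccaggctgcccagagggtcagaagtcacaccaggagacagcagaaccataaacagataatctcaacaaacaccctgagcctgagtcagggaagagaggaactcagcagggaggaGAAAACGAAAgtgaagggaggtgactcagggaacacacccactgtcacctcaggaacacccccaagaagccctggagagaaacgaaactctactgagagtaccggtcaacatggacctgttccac
Oasl1: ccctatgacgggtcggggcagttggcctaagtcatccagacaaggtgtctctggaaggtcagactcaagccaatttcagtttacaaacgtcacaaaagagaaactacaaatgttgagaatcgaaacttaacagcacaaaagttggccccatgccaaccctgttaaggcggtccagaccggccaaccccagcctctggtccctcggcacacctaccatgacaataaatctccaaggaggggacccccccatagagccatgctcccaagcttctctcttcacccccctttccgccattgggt
Oas1a held 2 overlapping matches, beginning 20 and 14 bases before the gene start, and Oas3 held 1, beginning 75 bases before it. These exact letters were not found on either strand of the Oasl1 or Oasl2 window, and 3.44% of the 32851 RefSeq promoters of that length hold them. Oas1a also held TTCNNNGAA, the interferon-gamma activated site, 98 bases before its start (8.3% of promoters hold it), and Oas3 held the AP-1 site TGANTCA 109 and 54 bases before its start (7.81% of promoters). The kappaB consensus, searched on both strands, occurred in Oas1a, Oas3 and Oasl1 and in 50.8% of all promoters. A match describes the letters and shows no binding. The sequence table had no entry for Oas2, Mx1 or Mx2.

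The total per library ran from 19097027 to 39977088 counts, or 8181254 to 21985891 once a peak spanning the mitochondrial genome was left out. That peak took a mean of 58.3% to 63% of counts in Ctrl, Z, ZcG, ScG and ZScG and 44.4% to 54.5% in the 13 other groups, so these 2 sets of groups stood apart by their means. Single libraries did not separate fully: the ZS libraries, counted with the 13, had 58.1% and 51.0%, the first of them above the lowest ScG (57.3%) and ZScG (57.9%) libraries. Comparisons of ScG, Z, ZcG and ZScG with Ctrl stay inside the first set, and all others with Ctrl cross the sets, where set and stimulation cannot be told apart. P lies in the second set. Start peaks were present for 8 of 8 myeloid and dendritic marker genes, against 0 of 3 T cell, 1 of 3 B cell, 1 of 4 neutrophil, 2 of 3 erythroid and 0 of 2 hepatocyte markers. Myeloid and dendritic levels differed widely. Over the groups, Cd74, which serves antigen presentation, had 31.9 to 45.1 CPM, H2-Ab1 4.45 to 8.6 and Flt3 2.43 to 5.59. The erythroid gene Klf1, at 9.98 to 16.2 CPM, lay above H2-Ab1 and Flt3. The B cell gene with a peak, Ms4a1, ranged from 1.26 CPM to 7.9 and was higher in L, S and cG, and the neutrophil gene S100a8 ranged from 7.25 CPM to 18.9 and was lower in L, H, S and cG. Their part in the results was not tested.

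Each stimulation was first set against Ctrl. All 72 members were tested among 119464 peaks, and a peak was called at an adjusted p under 0.05 (edgeR quasi-likelihood test, Benjamini-Hochberg over all tested peaks). LPS, HMW, SeV and 3',3'-cGAMP each raised accessibility at a large share of the OAS and Mx peaks, depleted zymosan at a few, and PAM at 1. Higher members numbered 37 of 72 in L (11.2% of all tested peaks were higher), 27 in H (5.21% of all), 38 in S (14.1%) and 38 in cG (11.6%). In Z, 7 were higher (4.16% of all). In P, 1 was higher (11.1% of all) and 5 were lower (9.45% of all), so the member shares there, 1.39% and 6.94%, lay under those of all peaks. Scaled by total count, P had 5 higher and 1 lower, and with only the groups compared it had 0 lower. The median log2 fold change of the 72 was 1.30 in L, 1.19 in H, 1.30 in S, 1.35 in cG, 0.47 in Z and -0.14 in P, and that of all tested peaks lay between -0.039 and 0.029 in these 6 comparisons. These comparisons share the same 2 Ctrl libraries.

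Lower members were rare outside P: 1 in L (11.1% of all peaks were lower) and 1 in H (5.46%). Counts of lower members were 0 in S (13.8% of all), cG (11.6%) and Z (1.75%) with edgeR and with DESeq2, and at an unadjusted p under 0.05 with edgeR they were 1, 0 and 1. Without the first Ctrl library the higher count fell to 17 in H and 2 in Z, and without the second to 15 in H. Without the first and the second Z library the Z count was 4 and 3.

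In the combinations, higher members numbered 36 in PL (13.8% of all peaks), 31 in PH (13.6%), 30 in LH (11.3%), 33 in PS (17.3%), 38 in PcG (16.8%), 33 in ScG (14.4%), 38 in ZS (14.4%) and 34 in ZcG (11.4%). The triplets gave 35 in PLH (14.9%), 40 in PScG (19.0%) and 42 in ZScG (16.2%). Counts of lower members were 3 or fewer in each of these 11 comparisons (10.2% to 18.1% of all peaks), and 0 in LH and PcG with edgeR and DESeq2 (1 and 3 at an unadjusted p under 0.05). In ScG, ZcG and ZScG, whose mitochondrial shares lie with that of Ctrl, 33, 34 and 42 members were higher. PH gave 16 without the first Ctrl library.

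Across the 17 stimulations, 53 of the 72 peaks were higher in at least 1, 9 were lower in at least 1, and 13 were called in none. The 13 comprised 9 gene body and 4 flank peaks, with mean CPM of 0.463 to 5.97, against 0.463 to 65.4 over all 72. All 9 peaks at a gene start or end were called at least once. A set of 16 peaks was higher in each of the 15 stimulations other than P and Z, and 7 of them also in Z. In single stimulations, 4.16% (Z) to 19.0% (PScG) of all tested peaks were higher. Shares of all peaks for these counts across stimulations are not given, so the counts only describe the 72 peaks. Split by locus, the SeV comparison called 15 of 20 peaks higher in the Oasl1 window, 5 of 8 in Oas1a, 2 of 3 in Oas2, 3 of 6 in Oas3, 6 of 14 in Oasl2, 5 of 13 in Mx1 and 6 of 16 in Mx2. The LPS comparison called 13, 3, 1, 3, 6, 8 and 8 in the same order. Oasl1 thus had the largest count and the largest median in S (2.32, against 0.58 for Mx1), and both its start and its body took part.

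**Figure D1:**
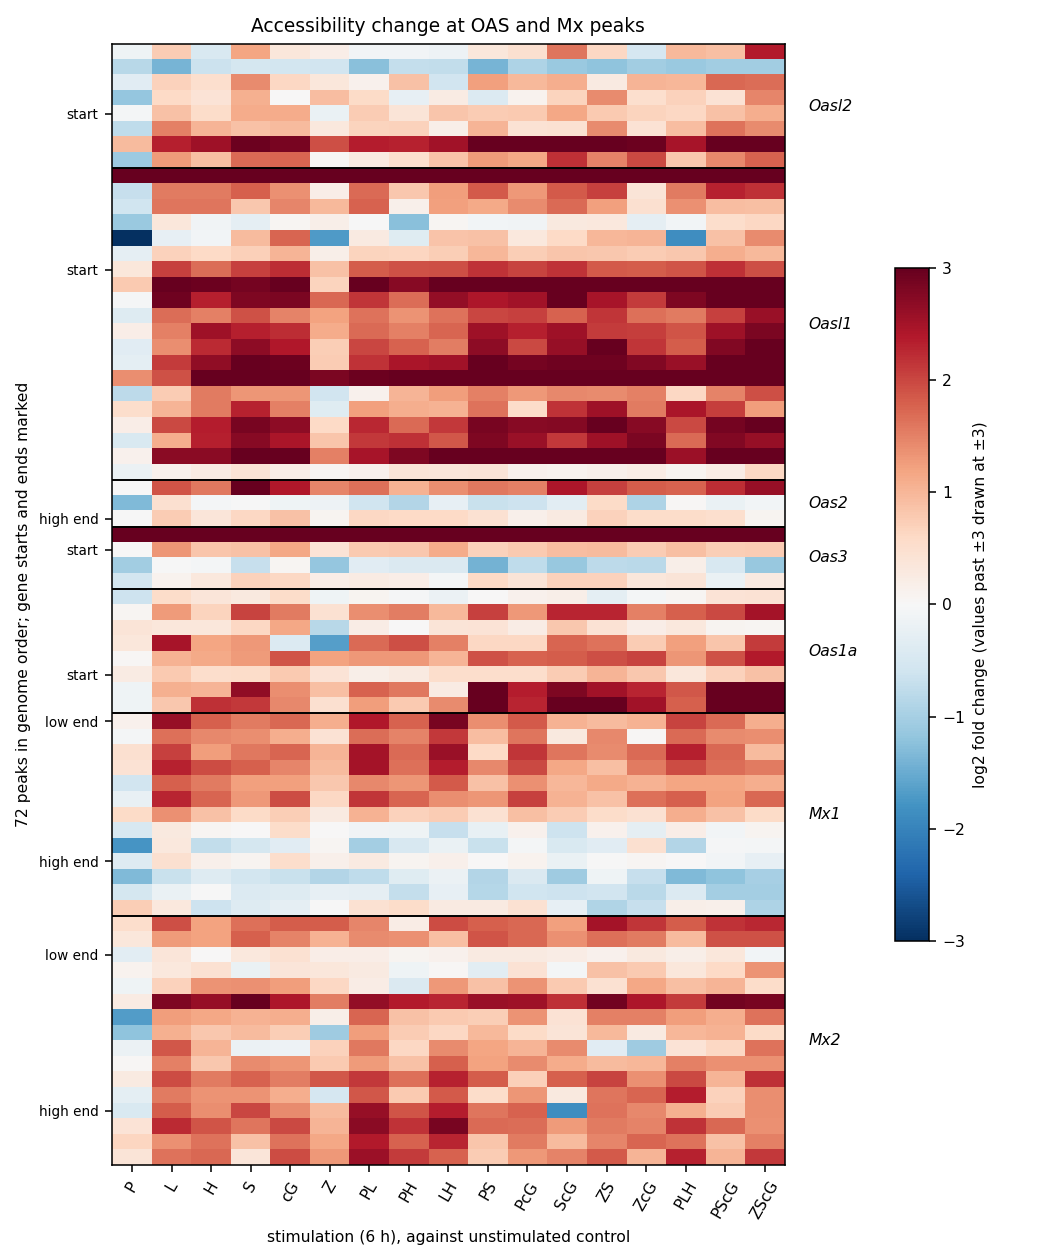
Log2 fold change against Ctrl of all 72 peaks (rows, in genome order within each gene, starts and ends marked) in the 17 stimulations (columns), with colours ending at ±3. The P column is mostly pale (median -0.14), with strong colour at a few peaks of very low count, the Z column is intermediate (0.47), and the other columns are red across most of Oasl1 and much of Mx1 and Mx2.

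At Oasl1, the start peak (chr5:114922803-114924096, mm10, spanning the annotated start of the gene at 114923143-114937911) had TMM-scaled counts relative to library size (CPM) of 10.4 and 11.1 in the Ctrl libraries, 12.3 and 14.7 in P, 17.7 and 21.5 in Z, 34.8 and 34.2 in H, 47.8 and 42.0 in L, 45.0 and 44.2 in S, and 45.7 and 54.1 in cG. Every library of L, H, S and cG lay over every Ctrl, P and Z library. The change against Ctrl was 2.05 ± 0.129 in S (log2 ± SE, edgeR adjusted p = 7.07e-34), 2.06 ± 0.129 in L, 1.68 ± 0.132 in H, 2.21 ± 0.129 in cG and 0.87 ± 0.144 in Z (adjusted p = 1.88e-06), and in P it was 0.33 ± 0.144 (adjusted p = 0.0883). Over the 18 groups its mean level was highest in cG (49.9 CPM) and lowest in Ctrl (10.7), and in 11 of 17 pairs of neighbouring groups in that order the libraries overlapped. The peak just upstream (chr5:114921571-114922729, overlapping the predicted gene Gm13822) rose less, from 13.1 and 12.5 CPM in Ctrl to 22.1 and 19.8 in S, a log2 change of 0.71 ± 0.152.

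Inside the Oasl1 gene body the widest peak (chr5:114930687-114933784) held 1.53 and 2.6 CPM in Ctrl, 1.75 and 1.66 in P, 9.26 and 8.79 in L, 12.8 and 14 in H, 15.4 and 20.2 in S and 14.5 and 17.6 in cG. L sat between Ctrl and the S and cG libraries without overlap. The log2 change was 3.08 ± 0.231 in S and 2.10 ± 0.248 in L (edgeR adjusted p = 2.48e-26 and 9.87e-13). A peak just past the gene's end (chr5:114938073-114940708, overlapping no annotated gene) went from 0.874 and 1.83 CPM in Ctrl to 15.8 and 14.8 in S and 17.9 and 24.6 in cG, and stood at 4.86 and 3.15 in Z. Its log2 change of 3.94 ± 0.256 in cG exceeded that of the start peak, 2.21, and its Z change of 1.5 was lost as a call without the first Ctrl library (1.10) or the first Z library (1.18). Another body peak (chr5:114935551-114936521) rose by 2.84 ± 0.439 in S. Per kb of peak the start remained the most open part, with a mean over libraries of 29.4 CPM per kb against 4.17 for the widest body peak and 4.53 for the downstream peak.

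**Figure D2:**
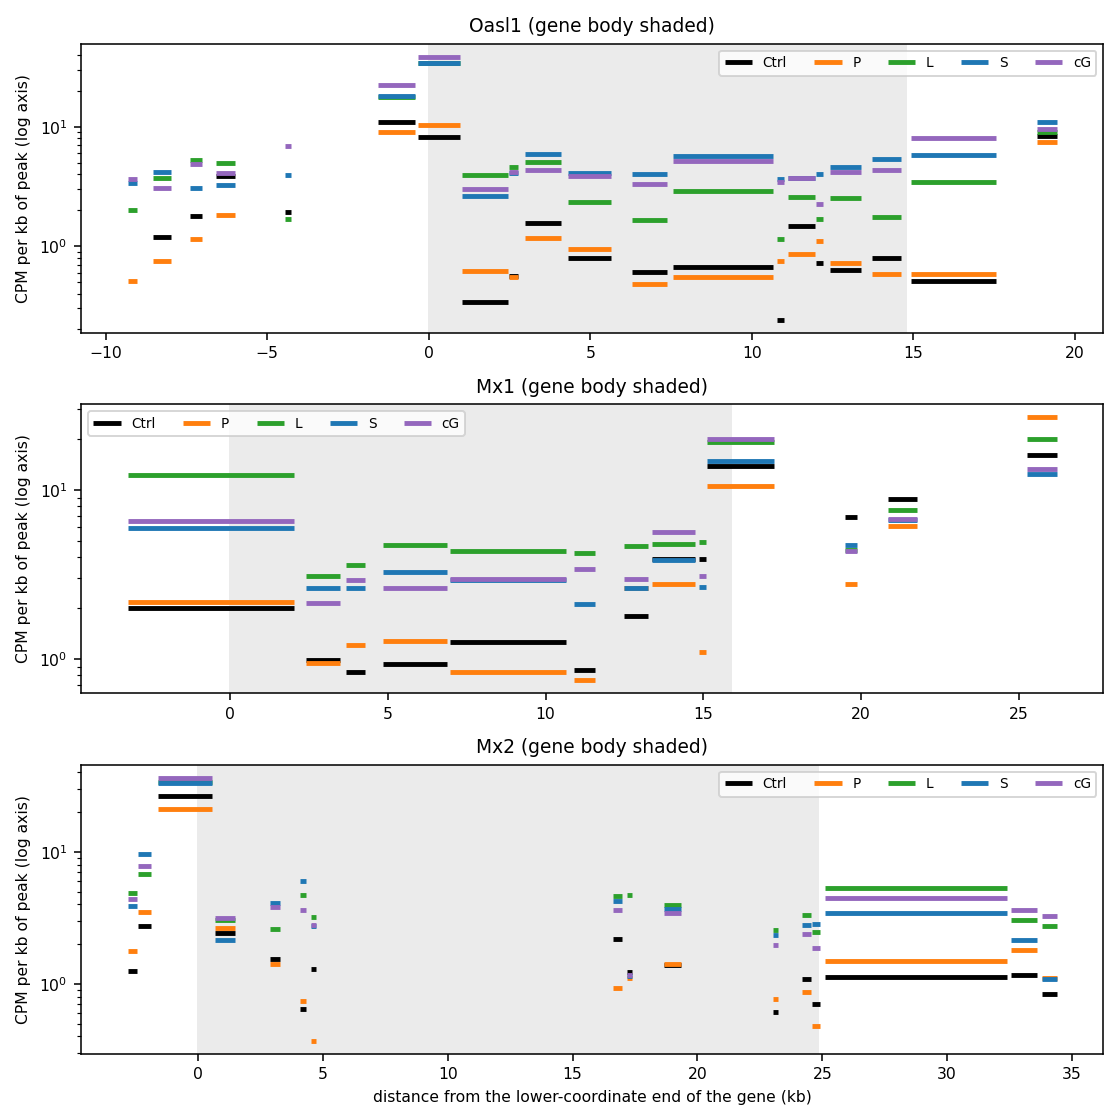
CPM per kb of peak (log axis) at each peak of the Oasl1, Mx1 and Mx2 windows, drawn as a bar over the peak's extent, against distance in kb from the lower-coordinate end of the gene (gene body shaded); bars are means of 2 libraries for Ctrl, P, L, S and cG, and a group at 0 is not drawn. Over Oasl1 the S and cG bars lie above Ctrl at most peaks from the start (29.4 CPM per kb over all libraries) to the downstream flank, whereas over the lower-coordinate end of Mx1 the L bar lies highest.

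At Oasl2 (114896926-114912245), the start peak (chr5:114896890-114898265) held 7.21 and 6.08 CPM in Ctrl, 13 and 11.4 in L, 16.0 and 12.7 in S, 14.1 and 14.6 in cG, 5.8 and 6.93 in P and 5.64 and 5.87 in Z. The P and Z libraries lay in or under the Ctrl range. It rose by 1.11 ± 0.198 in S and 0.87 ± 0.201 in L (log2, edgeR adjusted p = 1.62e-06 and 0.000326). A peak between Oasl1 and Oasl2 (chr5:114913817-114914111, singled out after its values were seen) had 0 counts in both Ctrl libraries and 19 and 12 counts in S. That was 6.39-fold over a floor of 3 counts for the Ctrl group. The ratio was largest in ZScG (10.4), and was 3.98 in L and 0.966 in P. A second flank peak (chr5:114918693-114918892) had 0 counts in both P libraries and was called lower in P, but Ctrl itself held 0 and 8 counts and the difference was 0 without the second Ctrl library.

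Oas3 had the start or end peak with the highest CPM among Oas1a, Oas2 and Oas3. Per kb of peak, Oas3 had a mean of 11.1 CPM, close to 10.5 at the Oas2 end and above 8.97 at the Oas1a start. Its start peak (chr5:120775058-120778372, gene at 120753098-120777684) held 17.6 and 24.3 CPM in Ctrl, 19.1 and 22.7 in P, 50.3 and 55.1 in L, 37.9 and 37.6 in H, 38.0 and 38.7 in S and 44.0 and 50.3 in cG. Both L libraries lay above those of H and S. The log2 change was 1.33 ± 0.119 in L and 0.87 ± 0.121 in S (edgeR adjusted p = 8.72e-20 and 8.95e-10), and Z gave 0.42 ± 0.13 (adjusted p = 0.031), a call lost without the first Ctrl library (0.21) or the second Z library (0.29). A short body peak beside it at lower coordinates (chr5:120774650-120774849, singled out after its values were seen) had 0 counts in both Ctrl libraries and 13 and 21 in ZS. That was 11-fold over a floor of 3 counts for the Ctrl group, the largest ratio of the stimulations. The ratio was 4.58 in L, 2.06 in S, 0.905 in LH, 0.759 in Z and 0.724 in P. The flank peak chr5:120779571-120780444 was lower in P (3.28 and 4.53 CPM in Ctrl, 1.53 and 2.24 in P, log2 change -1.05 ± 0.379, adjusted p = 0.0337), and this call was lost under 6 of the alternative fits.

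The Oas1a start and the Oas2 end peak had smaller changes than the Oas3 start in L, S and cG. The Oas1a start peak (chr5:120906601-120907815, gene at 120896256-120907544) held 8.09 and 6.66 CPM in Ctrl, 13.3 and 12.1 in L, 10.5 and 11 in S and 13.7 and 11.6 in cG. The S and L libraries lay above both Ctrl libraries, with log2 changes of 0.55 ± 0.202 and 0.79 ± 0.199 (edgeR adjusted p = 0.0298 and 0.00123). Both calls were lost without the second Ctrl library, at 0.41 and 0.65, and the S call also without the first (0.58) or second S library (0.51). The flank peak 5′ of the Oas1a start (chr5:120908080-120908519, singled out after its values were seen) rose from 0.219 and 0.579 CPM to 2.29 and 3.01 in S and to 6.7 and 4.55 in ZScG, and in L, at 1.13 and 0.647, it was not called (1.07 ± 0.649, adjusted p = 0.242). At Oas2 (120730333-120749886, strand not given) the peak over the higher-coordinate end (chr5:120749136-120750257) held 6.56 and 10.4 CPM in Ctrl, 15.9 and 13.1 in L, 14.3 and 12.3 in S and 14.2 and 17 in cG. Its log2 changes were 0.76 ± 0.191 in L and 0.63 ± 0.193 in S (adjusted p = 0.0013 and 0.00709), and both calls were lost without the first Ctrl library, at 0.47 and 0.35, the S call also without the first S library (0.52). No alternative tried here settles whether reads from near-identical OAS1 copies were shared between them, since the handling of multiply mapped reads is not given in the sources used here.

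At Mx1 (chr16:97447035-97462906, strand not given in the table), the broad peak over the lower-coordinate end (chr16:97443785-97449053) followed LPS most closely. It held 10.2 and 10.9 CPM in Ctrl, 11.2 and 11.7 in P, 21.7 and 23.0 in Z, 31.5 and 31.4 in S, 29.8 and 39.6 in cG, 36.5 and 36.7 in H and 66.4 and 63.1 in L. Both L libraries lay far above every S, cG and H library. Log2 changes were 2.62 ± 0.135 in L, 1.79 ± 0.139 in H, 1.57 ± 0.139 in S, 1.72 ± 0.14 in cG and 1.08 ± 0.151 in Z, all called (edgeR adjusted p of 7.76e-09 or less), and 0.12 ± 0.155 in P (adjusted p = 0.647). Of 17 neighbouring pairs in its order of group levels, 9 did not overlap, the most among the named peaks. The peak over the higher-coordinate end of Mx1 (chr16:97462152-97464280) was already open, at 32.2 and 27.0 CPM in Ctrl, and reached 41.2 and 41.2 in L and 37.7 and 47.7 in cG. These gave log2 changes of 0.48 ± 0.12 and 0.53 ± 0.121 (adjusted p = 0.00112 and 0.000266), lost without the second Ctrl library (0.35) and the second cG library (0.35), respectively.

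The Mx2 gene (chr16:97536081-97560901) showed a like contrast between its most open peak and its flank. The peak over its lower-coordinate end (chr16:97534460-97536647), the most open of the 72 per library at a mean of 65.4 CPM, held 58.3 and 57.2 CPM in Ctrl, 70.9 and 76.9 in L, 71.0 and 73.3 in S and 76.7 and 82.0 in cG. Its log2 changes were small, 0.36 ± 0.0953 in L, 0.32 ± 0.0955 in S and 0.46 ± 0.0958 in cG, all called (edgeR adjusted p = 0.00245, 0.00573 and 6.55e-05). The L call was lost without the second L library (0.30) and the S call without the second S library (0.30). The 7265-bp peak beyond the other end (chr16:97561207-97568471), which overlaps Tmprss2, a serine protease gene, rose from 7.65 and 8.78 CPM to 40.6 and 36.9 in L, 36.6 and 23.5 in H, 21.8 and 28.0 in S and 32.4 and 32.4 in cG. Its log2 changes were 2.23 ± 0.257, 1.88 ± 0.263, 1.60 ± 0.265 and 1.97 ± 0.262, with Z at 1.02 ± 0.291 (adjusted p = 0.0394), a call lost under the replicate block and without any 1 of the 4 Ctrl and Z libraries.

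**Figure D3:**
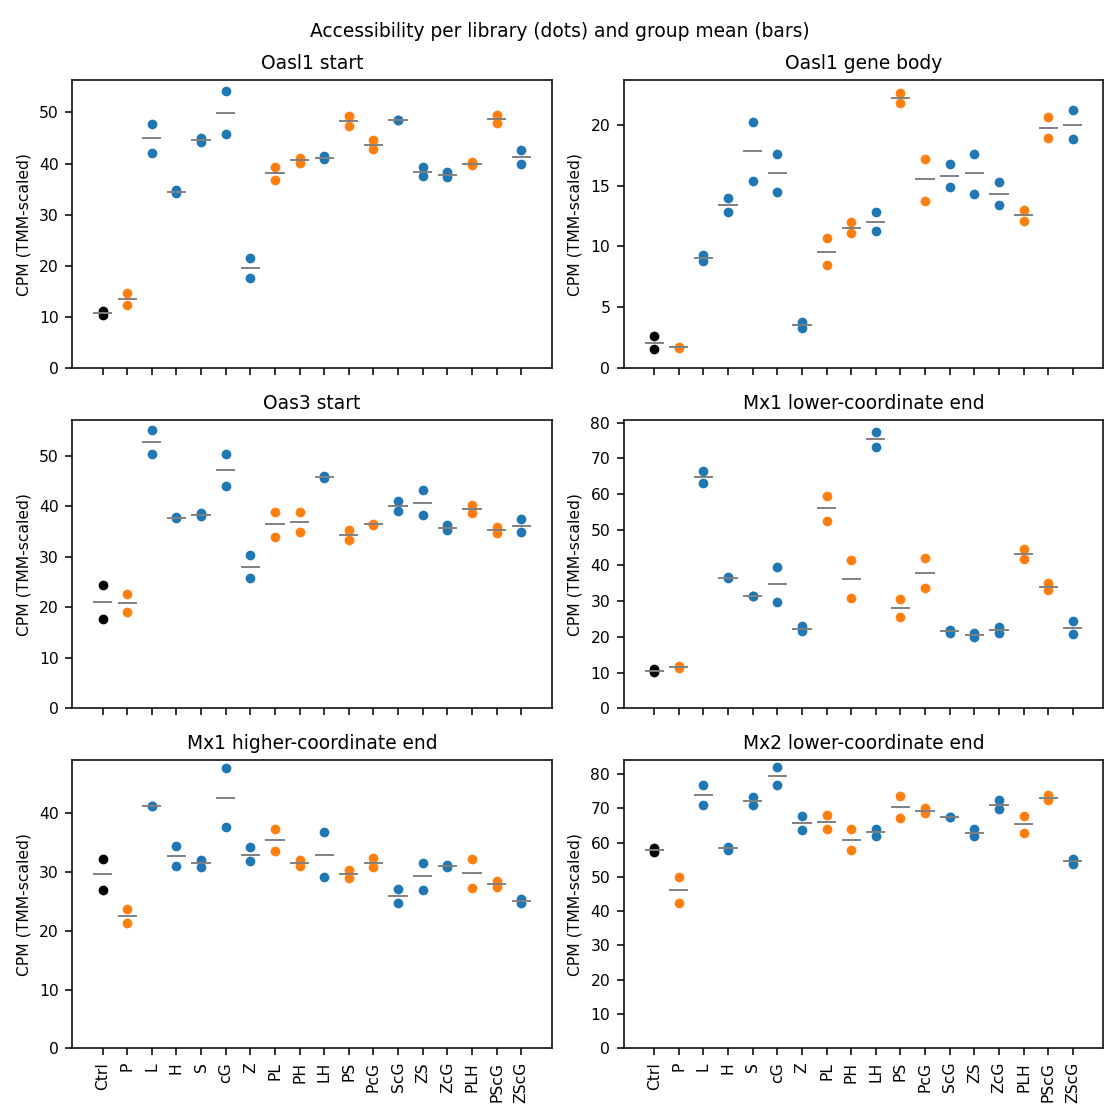
TMM-scaled CPM of 6 peaks in each library (dots; black Ctrl, orange groups with PAM, blue other groups) with the mean of the 2 libraries (bar), over the 18 groups. P lies beside Ctrl in the Oasl1 and Oas3 start panels, and the Mx1 lower-coordinate end is highest in LH (77.3 and 73.3 CPM) and L.

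Of the 6 calls in P, 5 were lower and 1 was higher. Besides the 2 flank peaks described above, the lower calls were at the Mx1 higher-coordinate end, at the Mx2 lower-coordinate end and at the flank peak chr16:97466539-97466913 beyond Mx1 (-1.32 ± 0.481, edgeR adjusted p = 0.0365). This last peak was lower also in PLH and PScG, and the flank peak beside the Oas3 start also in PS, ScG and ZScG. The other lower calls were in P alone. The Mx1 higher-coordinate end held 21.3 and 23.8 CPM in P (log2 change -0.39 ± 0.126, edgeR adjusted p = 0.0155) and the Mx2 lower-coordinate end 50.1 and 42.5 (-0.32 ± 0.0982, adjusted p = 0.0105), in both cases under both Ctrl libraries. Scaling by total count moved these to -0.06 and 0.01, which ends both calls and turns the second. The first call was also lost without the first Ctrl (-0.26) or first P library (-0.31), and the second without the first Ctrl (-0.30) or second P library (-0.19). The only member higher in P was the Fam3b peak beyond Mx1 (chr16:97472288-97473241), with 14.2 and 16.5 CPM in Ctrl, 23.9 and 27.4 in P, 9.72 and 10.5 in H and 8.28 and 8.2 in ZS. It rose by 0.74 ± 0.158 in P (edgeR adjusted p = 0.000107), was higher also in PL, PH and PcG, and was lower in H, ZS, ZcG and ZScG. It therefore ran in its own order, apart from the Mx1 end peaks. The P count of lower members was 2 without the second Ctrl library or the second P library and 1 without the first P library. The higher count was 2 without the second Ctrl library or the first P library.

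SeV and LPS were then compared directly, a contrast chosen after the data were seen and one that involves no Ctrl library and only groups with low mitochondrial shares. Of the 72 peaks, 5 were higher in S (5.05% of all tested peaks) and 5 were lower (4.8% of all), so the count is near that of all peaks and is no result about the loci as a whole. By window, the calls were 4 higher in Oasl1, 1 higher in Oas1a, 1 lower in Oas3 and 4 lower in Mx1, with 0 in Oas2, Oasl2 and Mx2. Median differences were 0.63 in Oasl1, 0.44 in Oasl2, 0.26 in Oas1a, -0.12 in Oas2, -0.48 in Oas3, -0.53 in Mx1 and -0.19 in Mx2, given as a description. DESeq2 also gave 5 and 5, and at an unadjusted p under 0.05 edgeR gave 12 and 12. Without the second L library 4 members were called, and without the second S library 5.

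The calls higher in S were 3 Oasl1 body peaks, the Oasl1 downstream flank and the flank 5′ of Oas1a. The widest Oasl1 body peak differed by 0.98 ± 0.168 (log2, S minus L, edgeR adjusted p = 2.6e-06), the body peak chr5:114936863-114937759 by 1.65 ± 0.347 and chr5:114929439-114930510 by 1.30 ± 0.345. The downstream flank differed by 0.75 ± 0.177, a call lost without the second L library (0.65), and the Oas1a flank by 1.60 ± 0.451, lost without the second L library (1.24) or the second S library (1.39). The Oasl1 start peak, at 47.8 and 42.0 CPM in L and 45.0 and 44.2 in S, was not called. Those lower in S were the Mx1 lower-coordinate end (-1.04 ± 0.113, adjusted p = 5.91e-14), a Mx1 body peak at chr16:97454013-97457687 (-0.57 ± 0.179), the Mx1 higher-coordinate end (-0.39 ± 0.115, lost without any 1 of the 4 S and L libraries), the Fam3b peak (-0.69 ± 0.155, lost without the second S library, -0.53) and the Oas3 start (-0.46 ± 0.108, lost without the second L library, -0.38). The differences at the Mx1 lower-coordinate end and at the widest Oasl1 body peak stayed called without any 1 of those libraries. For the body peaks chr5:114936863-114937759, chr5:114929439-114930510 and chr16:97454013-97457687, losses are not listed peak by peak. The calls left without the second L or the second S library are fewer than the listed losses explain. Some of these body peak calls were therefore lost as well.

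**Figure D4:**
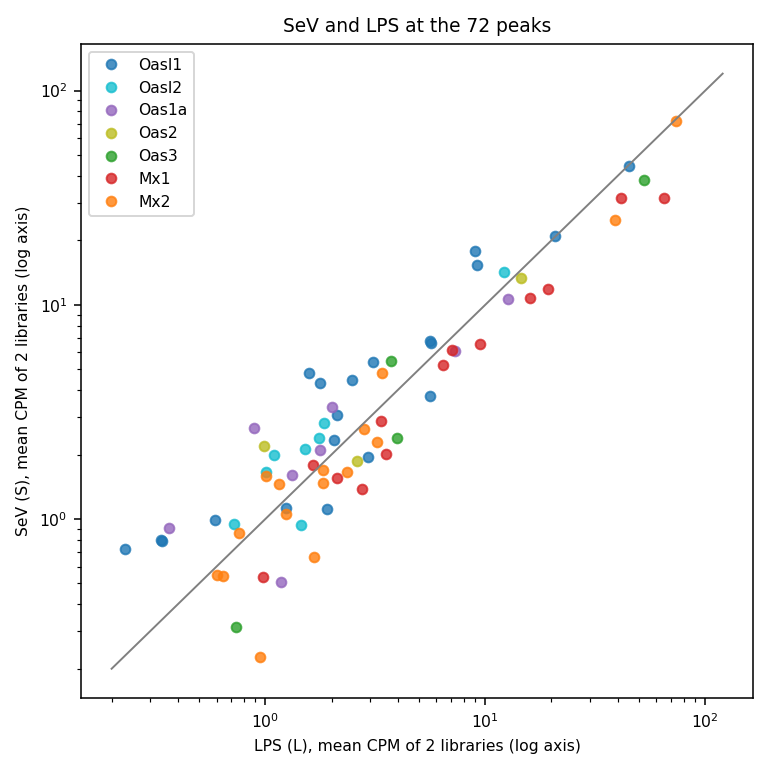
Mean CPM of the 2 S libraries against that of the 2 L libraries at the 72 peaks (both axes log, colour by gene, line of equality). Most Oasl1 points lie above the line (median log2 difference 0.63) and most Mx1 points below it (-0.53).

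The pairs were compared with the sum of their single-ligand changes (AB - A - B + Ctrl on the log2 scale, positive where the pair exceeds the sum). Every interaction that edgeR called at the loci was negative. Counts were 30 of 72 in ScG (7.52% of all tested peaks were negative), 16 in LH (2.62%), 6 in ZcG (1.74%), 4 in ZS (2.6%) and 3 in PL (4.18%), the last near the share of all peaks. The PL count was 1 without the first Ctrl library or either L library and 0 without the second P library, and the ZS count was 2 without the first Ctrl library. With edgeR, 0 were called in PH (1.08% of all negative, 0.471% positive), PS (2.9% and 1.68%) and PcG (2.17% and 1.09%). At an unadjusted p under 0.05 these 3 had 4, 4 and 6 members, and DESeq2 called 1 positive in PH, 0 in PS and 1 negative in PcG. The median interaction of the 72 was -1.33 in ScG and -1.22 in LH, against -0.022 and -0.027 for all peaks. The 5 pairs with calls share the Ctrl libraries. In ScG the 2 groups added (ScG, Ctrl) have high and the 2 subtracted (S, cG) low mitochondrial shares. The sets do not balance in LH, ZcG and PL either, so in these 4 pairs set and interaction cannot be told apart, and ZS has 1 library at the level of either set.

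Levels show what the negative terms were made of. At the Oasl1 start, S held 45.0 and 44.2 CPM, cG 45.7 and 54.1, and ScG 48.5 and 48.5, an interaction of -2.09 ± 0.169 (log2, edgeR adjusted p = 1.12e-22). The pair thus stood at the level of either ligand alone. The downstream flank of Oasl1 held 15.2 and 15.4 CPM in ScG, within or under the singles (15.8, 14.8, 17.9 and 24.6), an interaction of -3.94 ± 0.322 (adjusted p = 2.29e-22), and the widest body peak gave -3.10 ± 0.294. In LH, the Oasl1 start held 40.8 and 41.4 CPM, between the H and the L libraries, with an interaction of -1.81 ± 0.17 (adjusted p = 5.41e-17). The Oas3 start gave -1.10 ± 0.166 in ScG and -1.05 ± 0.163 in LH. Of the called terms, 1 in ScG and 1 in LH were at the 2 peaks with 0 Ctrl counts, whose fitted values depend on the prior count and are not given.

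The Mx1 lower-coordinate end went further in ScG. It held 22.0 and 21.2 CPM in ScG, under all S (31.5, 31.4) and cG (29.8, 39.6) libraries, and the direct differences, chosen after the data were seen, were -0.54 ± 0.126 from S (edgeR adjusted p = 0.0132) and -0.68 ± 0.126 from cG (adjusted p = 5.3e-05). It was the only member called in ScG minus S (0.102% of all peaks lower) and 1 of 4 lower in ScG minus cG (1.92%). The first call was lost without any 1 of the 4 libraries, and the second without the second cG library (-0.46). These differences cross the mitochondrial sets, so set and ligand cannot be told apart. With LPS and HMW the same peak reached 77.3 and 73.3 CPM, over both L libraries, yet LH minus L called 0 of 72 members with edgeR and with DESeq2 (0.0393% of all peaks lower, 0.0251% higher; 13 members at an unadjusted p under 0.05). LH minus H called 3 higher (2.65% of all), this peak (1.04 ± 0.113, adjusted p = 8.47e-14), the Tmprss2 peak beyond Mx2 (0.96 ± 0.208, lost without the second LH library, 0.91) and the Fam3b peak (0.86 ± 0.162). In cG minus S, 1 was higher (0.22% of all), the Mx1 higher-coordinate end (0.44 ± 0.116), lost without either S library or the second cG library (0.26).

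**Figure D5:**
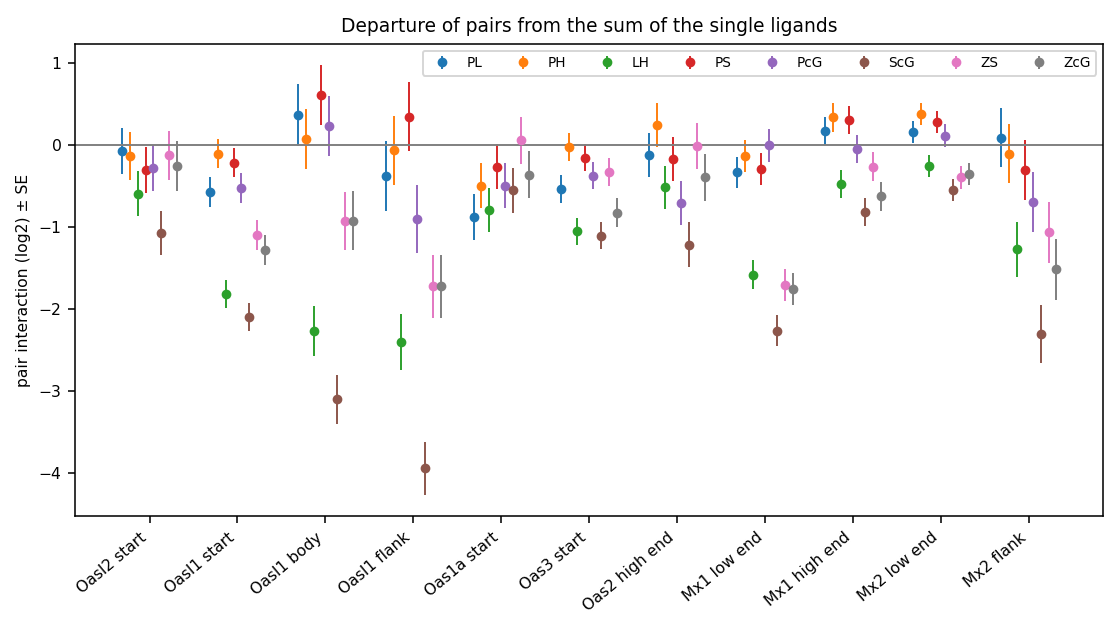
Pair interaction (log2 ± SE, from the fit over all libraries) at 11 start, end, body and flank peaks for the 8 pairs, with 0 as the additive level. ScG and LH lie lowest at the Oasl1 peaks (-3.94 at the downstream flank in ScG), while PL, PH and PS lie near 0 at most peaks.

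PAM and depleted zymosan were also added to other ligands. This gave 17 calls in 8 comparisons of 72 peaks. In each comparison 5.59% or fewer of all tested peaks were higher and 3.52% or fewer lower. The total is therefore no result about the loci as a whole. PS minus S called 1 higher (2.44% of all tested peaks; 0.492% were lower), PScG minus ScG 1 higher (2.11%; 2.42% lower), PcG minus cG 1 higher (5.59%) and 4 lower (3.52%), PL minus L 1 lower (0.362%) and PH minus H 1 higher (5.28%) and 2 lower (2.27%). ZS minus S called 2 lower (1.0%; 1.52% higher), ZcG minus cG 4 lower (1.04%; 1.82% higher), and ZScG minus ScG 0 with edgeR and DESeq2 (0.324% higher and 0.448% lower over all peaks; 9 members at an unadjusted p under 0.05). Without the second cG library the 17 became 9. Several of the lower calls were at peaks that cG or L alone had raised. The Oas3 start, with 50.3 and 55.1 CPM in L, held 33.9 and 38.9 in PL (-0.54 ± 0.111, edgeR adjusted p = 0.00129) and 36.2 and 36.5 in PcG (-0.38 ± 0.11 from cG).

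The Oasl1 downstream flank held 12.3 and 12.8 CPM in PcG, -0.76 ± 0.169 relative to cG (edgeR adjusted p = 0.000542). The Mx1 lower-coordinate end, with 31.5 and 31.4 CPM in S, held 19.9 and 21.0 in ZS (-0.62 ± 0.126, adjusted p = 0.000574) and 22.7 and 21.0 in ZcG (-0.67 ± 0.128 from cG, adjusted p = 0.000228). Z alone held 21.7 and 23.0 CPM, and ScG had a mean of 21.6. Z and ScG both lie in the high mitochondrial set, and the cause of these levels was not tested. The interaction at the Mx1 lower-coordinate end was -1.70 ± 0.197 in ZS and -1.75 ± 0.198 in ZcG. The ZcG differences cross the mitochondrial sets, and of the ZS libraries the first lies with the high set. In PScG the same peak stood 0.65 ± 0.127 over ScG, at 35.2 and 33.0 CPM, a difference that crosses the sets as well.

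Triplets were also set against their pairs. Of the 9 triplet-against-pair comparisons, 2 are those just given and the other 7 gave 5 calls. PLH minus PL, PLH minus PH, PScG minus PS, PScG minus PcG and ZScG minus ZS called 0 members with edgeR. In these, 0.368% of all tested peaks or fewer were called in either direction, so 0 of 72 is no result about the loci. In PLH the Mx1 lower-coordinate end held 41.9 and 44.5 CPM against 77.3 and 73.3 in LH, -0.80 ± 0.111 (edgeR adjusted p = 2.31e-07), the only member called in PLH minus LH (0.203% of all peaks lower). ZScG minus ZcG called 3 higher (0.949% of all), in the Oasl2, Oasl1 and Oas1a flanks, and 1 lower (1.84%), the Mx2 lower-coordinate end (-0.38 ± 0.1). These 5 became 1 without the first ZcG or first ZScG library and 2 without the second of either. The triplet term, the triplet minus its pairs plus its single ligands minus Ctrl, called 4 members in ZScG, all positive (0.974% of all positive): the Mx1 lower-coordinate end (2.44 ± 0.272, adjusted p = 6.23e-12), a Mx1 body peak (2.14 ± 0.584), the Oasl1 start (1.26 ± 0.242) and the Oasl1 downstream flank (2.04 ± 0.463). The ZScG level at the Mx1 lower-coordinate end, 24.4 and 20.8 CPM, was close to that of its pairs, 19.9 to 22.7, which the pair terms place under the additive level. With edgeR and DESeq2, 0 were called in PLH and PScG (6 and 3 members at an unadjusted p under 0.05). Over all tested peaks, 0.511% were positive and 0.273% negative in PLH, and 1.03% and 0.976% in PScG. Without the first Ctrl library the 4 became 2, and without the second 7. The sets do not balance in the ZScG term, so set and interaction cannot be told apart there either.

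Other genes of the pathway, taken at peaks over their starts (both ends where no strand was given), were set beside the members. Of 17 peaks at 14 other antiviral genes, 11 were higher in L, 7 in H, 9 in S, 12 in cG and 4 in Z, and in P edgeR and DESeq2 called 0 (2 higher and 2 lower at an unadjusted p under 0.05). Of all tested peaks, 11.2%, 5.21%, 14.1%, 11.6% and 4.16% were higher in the same order, and in P 11.1% were higher and 9.45% lower. Isg15, an interferon-induced ubiquitin-like protein, rose by 1.49 ± 0.147 in S, and stood at 0.32 ± 0.16 in P (edgeR adjusted p = 0.157). Medians of this list were 0.76 in L, 0.68 in S and -0.11 in P. Of 11 peaks at 10 inflammatory genes, 9 were higher in P (11.1% of all), 5 in L (11.2%), 8 in S (14.1%) and 8 in cG (11.6%). Il6 rose by 1.36 ± 0.164 in P (edgeR adjusted p = 2.3e-12). Thus 9 of these 11 start peaks were higher in the same P libraries in which 1 of 72 OAS and Mx peaks was higher. The 72 include body and flank peaks. Of the 9 members at a gene start or end, edgeR called 0 higher and 2 lower in P. P against Ctrl crosses the mitochondrial sets, so set and ligand cannot be told apart. Both lists were read without a test of the list.

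Among interferon receptor and signalling genes, Irf7, the transcription factor whose translation Oasl1 restrains, rose in L (1.08 ± 0.126), S (0.85 ± 0.127) and cG (1.09 ± 0.127), as did Stat2 (0.51 ± 0.116, 0.34 ± 0.117 and 0.60 ± 0.117). Among 10 peaks at 9 sensor genes, those of the RNA sensors Ddx58 and Ifih1 and 1 of the 2 of Dhx58 were higher in L, S and cG, and the LPS receptor gene Tlr4 was lower in P, L, H, S and cG. Of the OAS1 paralogs, a peak shared by Oas1b and Oas1c rose in L (0.76 ± 0.213) and cG (0.99 ± 0.213), and the Oas1d peak, itself a member in the Oas1a window, in S (2.11 ± 0.806, edgeR adjusted p = 0.0373). Of all tested peaks, 11.2% were higher in L, 14.1% in S and 11.6% in cG. Lower were 9.45% in P, 11.1% in L, 5.46% in H, 13.8% in S and 11.6% in cG. The genes named were picked from their lists, and the other genes of these lists are not given. They are therefore no result about the lists as a whole.

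Among tested peaks outside the loci, the 10 whose level over the 18 group means ran closest to the mean of the standardised start and end peaks had Pearson r of 0.935 to 0.943 on log2 CPM, given as a description. They lay in or nearest to Cd86 (2 peaks), Caprin1, Ep400, Upb1, Serp2, Slc31a2, Ifit2, Slco3a1 and Mcidas. Under total-count scaling 1 of the 10 was still among the closest 10, so this ranking turns on the scaling.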

How the data were processed

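ATAC-seq libraries of 18 groups, 2 each, were analysed from a table of whole-number counts per peak that the authors deposited, with mm10 positions. Bowtie2 2.2.9, MACS2, bedtools and featureCounts are named in the submitters' processing notes, and how multiply mapped reads and peak sets were handled is not given in the sources used here. Per the labels' protocols, 50000 cells were lysed, fragments were amplified for 12 cycles and reads were 42 bases long. Without molecular identifiers, PCR copies are not independent, so count floors cover counting error only. The floor is set on the Ctrl side, and the count of the other group is taken as observed.

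The 1 peak on the mitochondrial genome was left out, 286 peaks failed edgeR's filterByExpr (minimum count 10), and 119464 were tested. One edgeR 4.0.16 quasi-likelihood fit (R 4.3.3, TMM, 18 group coefficients, 18 residual degrees of freedom, common dispersion 0.01998) gave 49 contrasts, each with Benjamini-Hochberg adjustment over all tested peaks and a threshold of 0.05. Fold changes used a prior count of 0.125. The script was tested on simulated data. Gene bounds came from RefSeq (GRCm38.p6), and each peak over a gene start, or over both ends where no strand is given, was taken as the start peak.

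Peaks named were those at gene starts or ends, the most open other peak in each window, and the 3 peaks elsewhere with the lowest p in S and in P. Peaks said to be singled out, and the Oasl1 body, Oasl1 downstream, Mx1 lower-coordinate and Tmprss2 peaks where followed into further contrasts, were chosen after their values were seen, as were the contrasts S minus L, cG minus S, ScG minus S, ScG minus cG, LH minus L and LH minus H. Members and lists were chosen with earlier results of these data known. Some genes of the lists are not reported here. Alternatives were other scalings (total count, DESeq2 1.42.0 size factors, loess offsets), the mitochondrial peak kept, no filter, DESeq2's Wald test, a fit of only the groups compared, a replicate block, thinning to 8181254 counts, and each library left out.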

Additional observations from a re-analysis of the deposited data

Results flagged for a closer look

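Peaks with an effect that differed by the other ligand present were called in 6 interaction terms. Of the 72 OAS and Mx peaks, the edgeR quasi-likelihood test called 30 in the pair of SeV and 3',3'-cGAMP, 16 in LPS with HMW, 6 in depleted zymosan with 3',3'-cGAMP, 4 in depleted zymosan with SeV and 3 in PAM with LPS, all below the additive level. Over all tested peaks, 7.52%, 2.62%, 1.74%, 2.6% and 4.18% were below it in the same order. The 3 of PAM with LPS are 4.17% of the members, the share of all peaks, and became 0 when thinned or with only the groups compared. In the triplet of depleted zymosan, SeV and 3',3'-cGAMP, 4 were called, all above it (0.974% of all tested peaks were above it). In ScG, LH, ZcG, PL and the triplet, mitochondrial set and interaction cannot be told apart. The ZS libraries lie at the levels of both sets.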

How the results depend on the processing

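Counts of OAS and Mx peaks higher than Ctrl stayed within 1.5 times the main count under the 9 alternatives to the fit in 15 of 17 stimulations. The exceptions were P, with 5 under total count and 2 under loess offsets, and Z, with 4 when thinned and 4 with only the groups compared. Total-count scaling shifted the median log2 change of all peaks to up to 0.45, and of all peaks called, those higher made up 87.1% in P, 88.8% in L, 91.7% in H and 81.1% in S and in cG, against 54%, 50.4%, 48.8%, 50.6% and 50.1% with TMM. It gave negative interactions of 5 in PL, 32 in LH, 3 in PcG, 47 in ScG, 7 in ZS and 12 in ZcG. Total count also gave 8 changed in ScG minus S, 11 in ScG minus cG, 1 in LH minus L, 0 in cG minus S, 42 with PAM or zymosan added (17 in the main fit), 24 in the triplet interactions (4), 1 lower in P (5) and 9 lower in the other stimulations (18). Under total count the Mx2 lower-coordinate end in P was 0.01, the 1 reversed value of 3660 recomputed for named peaks, of which 270 lost their call.

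Thinning gave 0 in PL, 6 in S minus L, 0 in cG minus S, 0 in ScG minus S, 9 with PAM or zymosan added and 2 for triplets against pairs (5). Loess offsets gave 0 in cG minus S, 3 lower in P and 3 for triplets against pairs. Only the groups compared gave 0 in PL, 1 in LH minus L, 5 in LH minus H, 0 lower in P and 9 for triplets against pairs. DESeq2 gave 1 negative in PcG. The cause of these shifts was not tested.

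With 1 library left out, higher counts ranged from 1 to 2 in P, 25 to 33 in L, 15 to 20 in H, 29 to 34 in S, 27 to 32 in cG, 2 to 5 in Z, 25 to 29 in PL, 16 to 27 in PH, 22 to 24 in LH, 28 to 30 in PS, 28 to 34 in PcG, 25 to 30 in ScG, 29 to 35 in ZS, 23 to 29 in ZcG, 25 to 29 in PLH, 33 to 35 in PScG and 33 to 37 in ZScG. Negative interactions ranged from 0 to 2 in PL, 0 to 1 in PH, 11 to 18 in LH, 0 to 1 in PcG, 25 to 28 in ScG, 2 to 4 in ZS and 4 to 5 in ZcG. Changed peaks ranged from 4 to 10 in S minus L, 0 to 2 in cG minus S, 2 to 5 in ScG minus cG and 2 to 3 in LH minus H, and were 0 in ScG minus S. Lower peaks ranged from 1 to 4 in P and 4 to 19 in the others, the 4 without the second Ctrl library. The remaining ranges were 9 to 17 with PAM or zymosan added, 2 to 7 for triplet interactions and 1 to 5 for triplets against pairs. The lone library of a group was then assumed to vary like the other groups.

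Replicate numbers did not pair the libraries: deviations correlated between -0.04 and 0.03 over 153 pairs of groups. The replicate block gave 26 in H, 6 in Z and 17 in LH interactions, left all other counts as they were, and ended 1 named call, the Tmprss2 peak in Z (1.02).

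With 2 libraries a group and as few as 8181254 counts outside the mitochondrial genome, small differences at peaks near 0.463 CPM were not detectable. In simulated counts for S against Ctrl, 24% of log2 changes of 1 were called, and 74% of those of 2. These were at peaks with a mean over 1 CPM, so a count of 0 does not show that nothing changed.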
